A study of Mus musculus with 2 samples.

Results

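The cytochrome P450 genes are the haem-containing oxidases of the endoplasmic reticulum and the mitochondria. They were taken here as every row of both expression tables whose symbol begins with Cyp followed by a digit, joined on the Entrez gene number. That gave 77 of 18944 listed genes, of which 73 are protein-coding in RefSeq, 3 are pseudogenes (Cyp2c53-ps, Cyp2d37-ps and Cyp4f41-ps) and 1 is Cyp4x1os, a non-coding RNA antisense to Cyp4x1. RNA was sequenced from 1 culture labelled Lgr5GFP-CreERT2 Stat6 KO and 1 culture labelled Lgr5GFP-CreERT2 WT, both described as intestinal stem cells from mice aged 2 months. Both carry the Lgr5 reporter allele, which drives green fluorescent protein and a tamoxifen-dependent Cre from Lgr5, the gene that marks crypt stem cells. Infection with a lentivirus for CRISPR/Cas editing of Stat6 and selection of cells that lack it are described under both samples, so the sources used here do not give what the WT culture received, or whether the KO culture is 1 clone. The medium held EGF, R-spondin 1, N2, B27, N-acetylcysteine and Y27632. STAT6 carries the signal of the cytokines IL-4 and IL-13, and the comparison asks how these cells differ without it.

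P450 enzymes insert an oxygen atom into lipophilic molecules, with electrons passed on by P450 oxidoreductase and cytochrome b5. Members of families 1 to 3 mainly oxidise drugs, dietary chemicals and other foreign compounds, and many of them also oxidise arachidonic acid. Family 4 hydroxylates fatty acids and leukotrienes, and most higher-numbered families act on sterols, bile acids, steroid hormones and vitamins A and D. In the gut these enzymes are found mainly in the absorptive cells of the villus, and many are induced through the receptors AHR, PXR, CAR and PPAR-alpha.

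Values are FPKM, fragment counts scaled by transcript length and by the mapped reads of the library, so levels can be compared between genes. There was 1 library per genotype, so the differences below have no replicate check and no test was made. Each gene's log2 ratio is log2((KO FPKM + 1)/(WT FPKM + 1)), and a gene is called higher or lower in KO where it is at least 1 in size, which is 2-fold. The Stat6 transcript itself was at 44.2 FPKM in KO and 41.3 FPKM in WT. Edited genes can keep a normal transcript level, and the genotype therefore rests on the labels alone. The steps between the lowest values gave an estimated depth of 20000000 reads in KO and 19900000 reads in WT. The labels give an average of 59000000 reads for each sample, and the gap between that number and the estimate was not tested. The read numbers and counting intervals below use the estimate, and at the larger number the intervals would be narrower. At the estimated depth a 2-kilobase transcript at 1 FPKM has 40.0 reads in KO and 39.8 reads in WT. Lgr5 was at 1.88 FPKM in KO and 1.79 FPKM in WT. The 12 listed stem cell markers lay between 1.44 and 61.5 FPKM in KO and between 1.14 and 85.9 FPKM in WT. The 25 listed markers of absorptive enterocytes spanned 5.12 to 7580 FPKM in KO and 0.53 to 2173 FPKM in WT. They summed to 19876 FPKM in KO and 5860 FPKM in WT, against 175.3 and 271.9 FPKM for the stem cell markers. The cultures thus held abundant transcripts of differentiated cells beside those of stem cell markers.

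P450 transcripts were more abundant in the KO library, and the excess lay in the Cyp2, Cyp3 and Cyp4 families. Summed over all 77 genes, the level was 1641 FPKM in KO and 949.9 FPKM in WT, a ratio of 1.73. The family made up 0.331% of all FPKM in KO and 0.188% in WT. Of the 77 genes 30 reached 1 FPKM in at least 1 library, and of these KO was at least 2-fold higher for 12 and at least 2-fold lower for 1. Among all 12079 genes at that level, 2.44% were at least 2-fold higher and 2.19% at least 2-fold lower. The median log2 ratio was 0.80 over the 30 P450 genes and -0.18 over all genes. A trimmed-mean scaling, which moves the median of all genes to 0.03, gave 15 P450 genes higher and 1 lower, beside 3.69% and 1.41% of all genes.

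**Figure D1:**
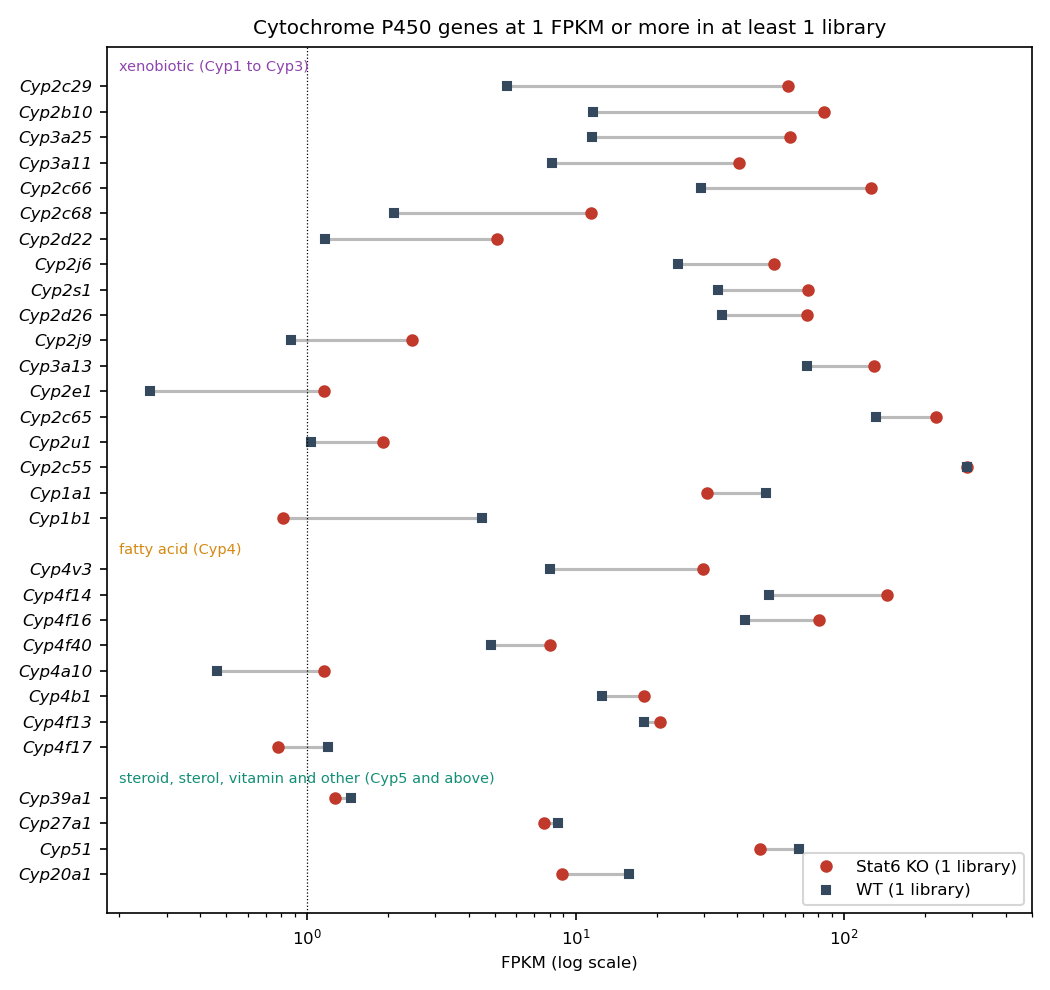
FPKM on a log axis for the 30 P450 genes that reached 1 FPKM in at least 1 library, with a circle for the Stat6 KO library and a square for the WT library joined by a line, and a dotted line at 1 FPKM. Cyp2c55 has both symbols at about 287 FPKM, whereas Cyp2c29 has 61.8 FPKM in KO and 5.57 FPKM in WT, and the 4 genes of family 5 and above all have the KO circle on the left in the values as deposited (the trimmed-mean scaling turns Cyp27a1 and Cyp39a1).

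Markers of absorptive enterocytes stood higher in the same library, with 22 of 25 at least 2-fold higher, a median log2 ratio of 1.80 and a summed level of 19876 FPKM in KO and 5860 FPKM in WT. None of the 25 was at 0 in either library. Their part in the P450 result was not tested, and in these bulk samples more cells of a type and more RNA per cell cannot be told apart. Stem cell markers had a median log2 ratio of -0.39, with 2 of 12 at least 2-fold lower (Cd44 and Sox9) and 0 higher. Among all measured genes, 2.44% were at least 2-fold higher and 2.19% at least 2-fold lower. Markers of white blood cells, endothelium and mesenchyme summed to 18.3, 8.85 and 28.9 FPKM in KO and to 43.3, 20.5 and 66.0 FPKM in WT. Most of the mesenchyme sum was Vim, at 25.6 FPKM in KO and 59.8 FPKM in WT. Of the 9 listed mesenchyme markers 6 were below 1 FPKM in both libraries. Liver cells, the richest source of P450 transcripts, were represented by 10 listed markers between 0 and 1.23 FPKM in KO and between 0 and 0.88 FPKM in WT, with albumin at 0.05 FPKM in KO and 0.12 FPKM in WT and Tdo2 at 0 in both.

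**Figure D2:**
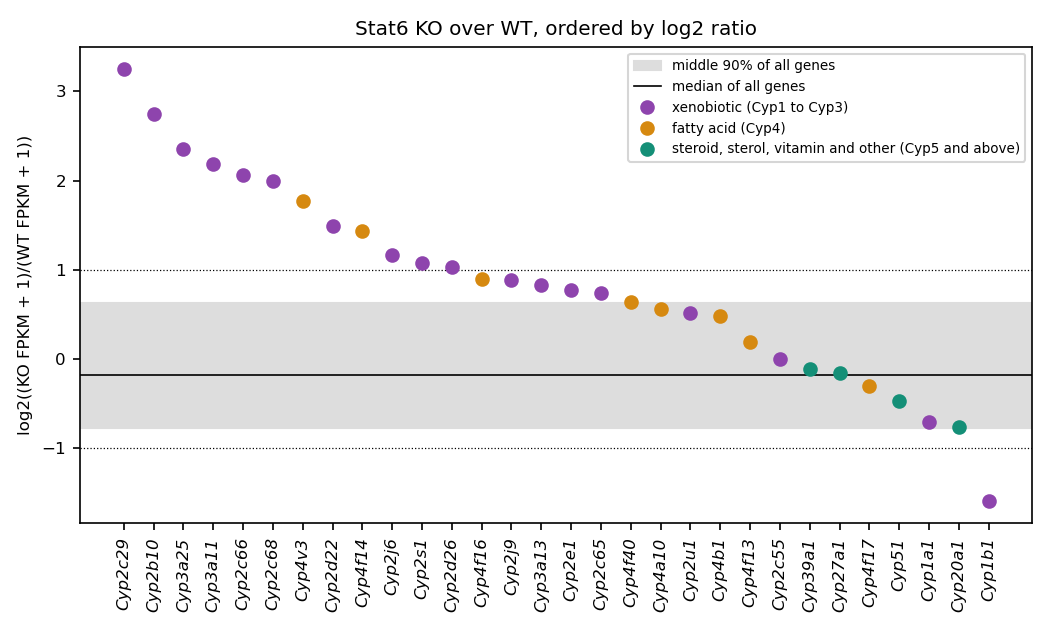
Log2 ratio of the Stat6 KO library over the WT library for the 30 P450 genes, in falling order and coloured by family group, against the median (line) and the middle 90% (grey band) of all 12079 genes, with dotted lines at 2-fold. Of the 30 genes 18 lie above the band and 1, Cyp1b1, below it.

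The Cyp2c genes were the most abundant subfamily in both libraries and ranged from a ratio of 1.00 to the largest ratio among the measured P450 genes. Mouse CYP2C enzymes oxidise drugs and convert arachidonic acid to epoxides and hydroxy acids. Cyp2c55 (Entrez gene 72082), the most abundant P450 transcript in both libraries, was at 287.5 FPKM in KO and 286.9 FPKM in WT, a log2 ratio of 0.00, or 0.24 with the trimmed-mean scaling. Cyp2c65 (72303) was next, at 219.9 FPKM in KO and 131.5 FPKM in WT, a log2 ratio of 0.74. Cyp2c66 (69888) was at 125.5 FPKM in KO and 29.2 FPKM in WT, a ratio of 4.30. Cyp2c29 (13095) was at 61.8 FPKM in KO and 5.57 FPKM in WT, a ratio of 11.1 and a log2 ratio of 3.26, and 99.98% of all measured genes had a lower one. From the estimated reads, the counting error alone allows a ratio between 9.87 and 12.5 (95% interval). Cyp2c68 (433247) was at 11.4 FPKM in KO and 2.11 FPKM in WT, a log2 ratio of 2.00.

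With Cyp2c55 level and the others higher, the make-up of the subfamily differed between the libraries. Cyp2c55 contributed 40.7% of the summed Cyp2c level in KO and 63.0% in WT. The whole subfamily summed to 706.6 FPKM in KO and 455.5 FPKM in WT, a ratio of 1.55, and without Cyp2c55 the ratio was 2.49. The other 7 Cyp2c entries stayed at or below 0.36 FPKM in KO and 0.07 FPKM in WT, and 3 of them (Cyp2c39, Cyp2c54 and Cyp2c70) were listed at 0 in both.

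The abundant Cyp2c genes lie close together. In the RefSeq table of GRCm38.p6 the members on chromosome 19 follow each other in the order Cyp2c55, Cyp2c65, Cyp2c66, Cyp2c53-ps, Cyp2c29, Cyp2c39, Cyp2c38, Cyp2c67 and Cyp2c68. Along the first 5 of these the KO level was 287.5, 219.9, 125.5, 0.11 and 61.8 FPKM, against 286.9, 131.5, 29.2, 0.07 and 5.57 FPKM in WT. The log2 ratio was 0.00 at Cyp2c55, 0.74 at Cyp2c65, 2.07 at Cyp2c66 and 3.26 at Cyp2c29, while the pseudogene between the last 2 was near 0 in both libraries. It did not go on growing along the chromosome: Cyp2c68, the next expressed gene, was at 2.00, and the 3 genes before it were at or below 0.04 FPKM in KO and at 0 in WT.

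Reads of 50 bases cannot always separate neighbours of such a family. Of the 50-base windows in the GENCODE M21 transcripts of Cyp2c65 and Cyp2c66, 20.6% and 19.5% also occur exactly in another gene, nearly all of them in each other. For Cyp2c68 the share was 43.3%, most of it with Cyp2c40, a gene not analysed here, so the reads counted for Cyp2c68 may come in part from other copies and its value is uncertain. Cyp2c29 shared 4.25% and Cyp2c55 1.13%.

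The 250 bases before the transcription start are shown for the 4 most abundant members of this cluster and for the 2 Cyp3a genes with the largest ratios, because these genes are neighbours with unlike log2 ratios in the first case and alike ones in the second. The sequences are from RefSeq (GRCm38.p6), written from the distal to the proximal end on the strand of the gene. Capitals mark the letters CAAAGT, the core of the element bound by the enterocyte and liver factor HNF4A, and AGGTCA, the half-site of nuclear receptors, on either strand.
Cyp2c55, chr19:39006769-39007018, plus strand: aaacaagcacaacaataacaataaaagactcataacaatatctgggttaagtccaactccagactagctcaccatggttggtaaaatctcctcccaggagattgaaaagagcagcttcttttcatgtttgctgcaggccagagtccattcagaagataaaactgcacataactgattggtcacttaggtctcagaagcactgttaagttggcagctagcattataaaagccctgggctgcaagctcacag
Cyp2c65, chr19:39060756-39061005, plus strand: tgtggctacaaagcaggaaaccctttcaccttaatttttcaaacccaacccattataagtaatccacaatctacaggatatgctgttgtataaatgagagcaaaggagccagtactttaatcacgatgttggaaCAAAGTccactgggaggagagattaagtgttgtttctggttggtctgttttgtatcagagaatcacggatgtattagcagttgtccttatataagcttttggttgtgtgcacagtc
Cyp2c66, chr19:39113648-39113897, plus strand: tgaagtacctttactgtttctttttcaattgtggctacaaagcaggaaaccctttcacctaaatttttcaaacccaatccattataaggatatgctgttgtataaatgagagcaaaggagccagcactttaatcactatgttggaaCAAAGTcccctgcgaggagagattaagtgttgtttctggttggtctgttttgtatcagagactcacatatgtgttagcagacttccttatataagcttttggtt
Cyp2c29, chr19:39286835-39287084, plus strand: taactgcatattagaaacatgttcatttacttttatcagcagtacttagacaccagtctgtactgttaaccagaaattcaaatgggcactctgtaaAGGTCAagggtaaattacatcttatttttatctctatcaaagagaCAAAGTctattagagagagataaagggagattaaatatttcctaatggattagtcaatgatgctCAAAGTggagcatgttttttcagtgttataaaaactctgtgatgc
Cyp3a11, chr5:145879855-145880104, minus strand: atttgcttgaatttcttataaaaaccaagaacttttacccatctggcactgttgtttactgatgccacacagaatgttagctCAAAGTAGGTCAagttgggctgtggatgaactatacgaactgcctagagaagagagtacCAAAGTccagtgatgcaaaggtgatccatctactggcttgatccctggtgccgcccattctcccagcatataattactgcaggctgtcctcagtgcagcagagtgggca
Cyp3a25, chr5:146009619-146009868, minus strand: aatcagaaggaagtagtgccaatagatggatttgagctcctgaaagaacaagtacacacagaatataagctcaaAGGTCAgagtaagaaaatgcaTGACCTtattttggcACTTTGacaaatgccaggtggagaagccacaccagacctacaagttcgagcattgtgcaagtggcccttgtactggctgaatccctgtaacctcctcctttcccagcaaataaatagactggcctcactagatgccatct

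In these windows Cyp2c55 held neither motif. Cyp2c65 and Cyp2c66 each held CAAAGT once, starting 116 and 104 bases before the start. Cyp2c29 held CAAAGT at 109 and 45 bases and AGGTCA at 154 bases before the start. In Cyp3a11 CAAAGT was followed directly by AGGTCA, from 168 bases before the start, and CAAAGT occurred again at 109 bases. Cyp3a25 held AGGTCA on both strands and CAAAGT on the reverse strand. None of these matches overlapped another. RefSeq windows were at hand for 25 of the 30 measured members. CAAAGT occurred in 6 of the 11 that were at least 2-fold higher in KO, in 3 of the other 14 and in 12.5% of all 27025 genes in the table. AGGTCA occurred in 3 of the 11, in 0 of the other 14 and in 13.8% of all genes, whereas AGTTCA, another half-site of nuclear receptors, occurred in 2 of the 11, in 2 of the other 14 and in 11.9% of all genes. GTTAAT, a half-site of HNF1 factors, was in 2 of the 11, 1 of the other 14 and 6.52% of all genes. TTTATG, which the intestinal factor CDX2 binds, was in 1 of the 11, 0 of the other 14 and 11.1% of all genes. TATAAA, the letters of the TATA box, was in 4 of the 11, 4 of the other 14 and 13.0% of all genes. It was counted at any position, such as 29 bases before the start in Cyp2c55 and 234 bases in Cyp3a11. TTC and GAA with 4 bases between them, a spacing that STAT6 binds, were in 0 of the 25 windows and in 5.86% of all genes, and GCGTG, the core of the AHR element, was in 4 of the 11, 6 of the other 14 and 28.2% of all genes. All motifs were searched on both strands. These matches describe the letters only, in a window that leaves out distal elements.

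The Cyp3a genes, of which Cyp3a11 is the closest counterpart of the main human drug-oxidising P450 of liver and gut, were higher in KO in all 3 measured members. Cyp3a25 (56388) was at 62.8 FPKM in KO and 11.5 FPKM in WT, a ratio of 5.48. Cyp3a11 (13112) was at 40.6 FPKM in KO and 8.15 FPKM in WT, a ratio of 4.99 with a counting interval of 4.50 to 5.53. Cyp3a13 (13113) was more abundant than both but differed less, at 129.6 FPKM in KO and 72.4 FPKM in WT, a log2 ratio of 0.83, or 1.07 with the trimmed-mean scaling.

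Cyp3a13 thus supplied 55.5% of the summed Cyp3a level in KO and 78.7% in WT. The subfamily summed to 233.3 FPKM in KO and 92.0 FPKM in WT, a ratio of 2.54, and without Cyp3a13 the ratio was 5.29. In the RefSeq order on chromosome 5, Cyp3a11 and Cyp3a25 are adjacent members within a run of Cyp3a genes from which Cyp3a13 stands apart. The other genes of that run, Cyp3a57, Cyp3a16, Cyp3a41a, Cyp3a44 and Cyp3a59, were all at 0 in WT and at or below 0.15 FPKM in KO. Cyp3a25 shares 26.8% of its 50-base windows, mainly with Cyp3a59, and Cyp3a11 shares 6.73%.

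Cyp2b10 (13088), the phenobarbital-inducible target of the receptor CAR, had the second highest log2 ratio, 2.75. It was at 83.7 FPKM in KO and 11.6 FPKM in WT, a ratio of 7.20 with a counting interval of 6.51 to 7.98. It was the sixth most abundant P450 transcript in KO and the fifteenth in WT. The other 3 Cyp2b genes, Cyp2b9, Cyp2b19 and Cyp2b23, were listed at 0 in both libraries. Cyp2b10 shares 8.70% of its windows with other genes, chiefly Cyp2b13, which was not analysed here.

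The remaining measured Cyp2 genes were also on the KO side, each with a smaller log2 ratio than Cyp2b10. Cyp2s1 (74134), a P450 of epithelia outside the liver, was at 73.0 FPKM in KO and 34.0 FPKM in WT, a log2 ratio of 1.08. Cyp2d26 (76279), of the subfamily of human debrisoquine hydroxylase, was at 72.7 FPKM in KO and 35.1 FPKM in WT (1.03), and Cyp2d22 (56448) at 5.09 FPKM in KO and 1.16 FPKM in WT, a ratio of 4.39. Cyp2j6 (13110), of a subfamily that epoxidises arachidonic acid, was at 54.9 FPKM in KO and 24.0 FPKM in WT (1.16). Its neighbour Cyp2j9 (74519) stood much lower, at 2.46 FPKM in KO and 0.87 FPKM in WT (0.89).

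Cyp2e1 (13106), which oxidises ethanol, and Cyp2u1 (71519), a fatty acid hydroxylase, were close to the lower limit of 1 FPKM. Cyp2e1 was at 1.15 FPKM in KO and 0.26 FPKM in WT, about 41.3 and 9.30 estimated reads. Its ratio of 4.42 has a counting interval of 2.17 to 10.6, and its log2 ratio of 0.77 shows how the added 1 FPKM shrinks the difference of low genes. Cyp2u1 was at 1.91 FPKM in KO and 1.03 FPKM in WT (0.52). Of the 16 measured Cyp2 and Cyp3 genes 10 were at least 2-fold higher, beside 2.44% of all measured genes. Another 5 of the 16 had smaller log2 ratios above 0, and Cyp2c55 was level, its ratio of 1.00 having a counting interval of 0.976 to 1.03. Of all measured genes 30.3% had a log2 ratio above 0, or 53.6% with the trimmed-mean scaling.

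**Figure D3:**
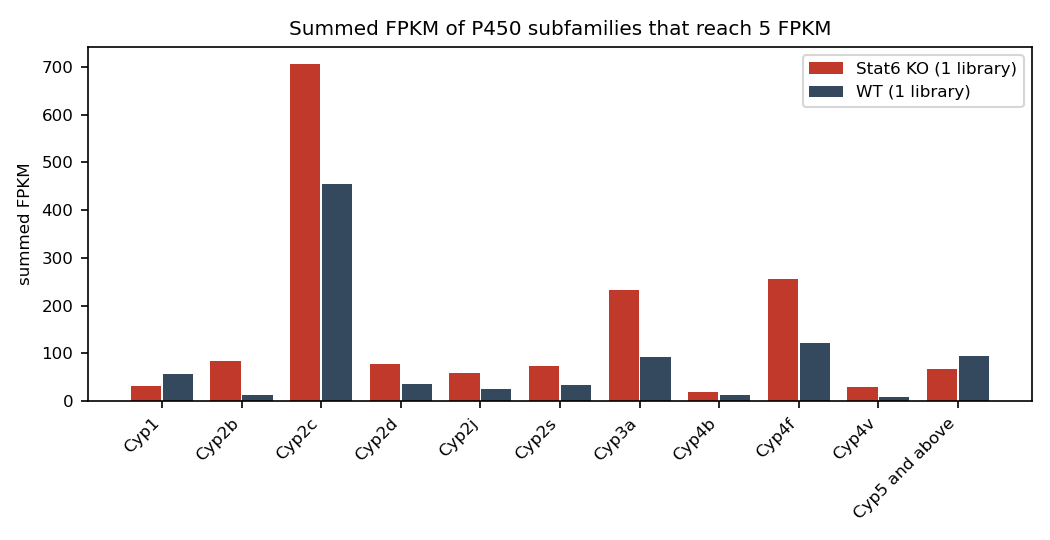
Summed FPKM of all members of the 11 P450 groups whose sum reached 5 FPKM in at least 1 library, with a bar for the Stat6 KO library beside a bar for the WT library and an axis starting at 0. Cyp2c (706.6 FPKM in KO, 455.5 FPKM in WT) exceeds every other subfamily shown in both libraries, and among the 11 the KO bar is the lower one for Cyp1 and for family 5 and above. The 8 groups not drawn summed to at most 1.91 FPKM in KO and 1.03 FPKM in WT, and KO was the lower one in 3 of them, Cyp2f, Cyp2r and Cyp2t.

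The Cyp1 genes, the classic targets of the aryl hydrocarbon receptor AHR, were on the other side. Cyp1a1 (13076) was at 30.8 FPKM in KO and 51.0 FPKM in WT, a log2 ratio of -0.71, or -0.48 with the trimmed-mean scaling. Cyp1b1 (13078) was at 0.81 FPKM in KO and 4.47 FPKM in WT, a log2 ratio of -1.60, and was the only measured P450 gene at least 2-fold lower in KO. That call was lost with a pseudocount of 5, where the log2 ratio was -0.70, and the gene dropped out with a minimum of 5 FPKM or of 1 FPKM in both libraries. Its level in WT was 5.52 times that in KO, and the counting interval of the KO to WT ratio was 0.14 to 0.23. Cyp1a2 was below the limit, at 0.27 FPKM in KO and 0.43 FPKM in WT. The 3 genes summed to 31.9 FPKM in KO and 55.9 FPKM in WT. Cyp1a1 was the fifteenth most abundant P450 transcript in KO and the sixth in WT.

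Family 4 was higher in KO by a sum of 305.5 FPKM against 142.7 FPKM in WT, a ratio of 2.14, with 2 of 8 measured genes at least 2-fold higher and 0 lower. The shares of all measured genes past 2-fold were 2.44% higher and 2.19% lower. Cyp4f14 (64385), an omega-hydroxylase of leukotriene B4 and fatty acids, was the third most abundant P450 in KO and the fifth in WT, at 144.6 FPKM in KO and 52.6 FPKM in WT, a log2 ratio of 1.44. Cyp4v3 (102294), the counterpart of human fatty acid hydroxylase CYP4V2, was at 29.7 FPKM in KO and 8 FPKM in WT (1.77). Cyp4f16 (70101) was at 80.2 FPKM in KO and 42.7 FPKM in WT, a log2 ratio of 0.89, or 1.13 with the trimmed-mean scaling.

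The other 5 measured family 4 genes were within 2-fold on the log2 ratio. Cyp4f13 (170716) was at 20.7 FPKM in KO and 17.9 FPKM in WT, and Cyp4b1 (13120) at 17.95 FPKM in KO and 12.5 FPKM in WT, log2 ratios of 0.20 and 0.48. Cyp4f40 (631304) was at 8.03 FPKM in KO and 4.82 FPKM in WT, a ratio of 1.67 with a counting interval of 1.40 to 1.98, and its log2 ratio of 0.63 lay just above the 95th percentile of all genes (also 0.63). Cyp4a10 (13117), a fatty acid hydroxylase that is a standard target of PPAR-alpha in liver, was at 1.15 FPKM in KO and 0.46 FPKM in WT. Its ratio was 2.50 with a counting interval of 1.45 to 4.53, and its log2 ratio, shrunk by the added 1 FPKM, was 0.56. Cyp4a31 and Cyp4a32 were at or below 0.15 FPKM in KO and 0.05 FPKM in WT. Cyp4f17 (208285) was the 1 measured family 4 gene on the lower side, at 0.78 FPKM in KO and 1.20 FPKM in WT (-0.31).

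The Cyp4f genes on chromosome 17 form a second row of neighbours with unlike levels. In RefSeq order Cyp4f16, Cyp4f37, Cyp4f40, Cyp4f15, Cyp4f14 and Cyp4f13 were at 80.2, 0.92, 8.03, 0, 144.6 and 20.7 FPKM in KO, against 42.7, 0.22, 4.82, 0.02, 52.6 and 17.9 FPKM in WT. Cyp4f16 and Cyp4f37 share 17.4% and 19.7% of their windows, mostly with each other. The ratio of the whole Cyp4f subfamily, which depends less on how such reads were divided, was 2.11, and without Cyp4f14 it was 1.62.

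P450 genes of sterol, bile acid and vitamin metabolism were not higher in KO. All 4 measured genes of family 5 and above had log2 ratios below 0 as deposited, with none past 2-fold, and Cyp27a1 and Cyp39a1 turned above 0 with the trimmed-mean scaling. The 15 genes of this group summed to 66.7 FPKM in KO and 94.1 FPKM in WT. Cyp51 (13121), the lanosterol demethylase of cholesterol synthesis, was at 48.7 FPKM in KO and 67.8 FPKM in WT (-0.47). Cyp20a1 (77951), whose substrate is not known, was at 8.87 FPKM in KO and 15.7 FPKM in WT (-0.76). Cyp27a1 (104086), the mitochondrial sterol hydroxylase of bile acid synthesis, was at 7.61 FPKM in KO and 8.62 FPKM in WT (-0.16). Cyp39a1 (56050), an oxysterol hydroxylase, was at 1.27 FPKM in KO and 1.46 FPKM in WT (-0.12). With that scaling the log2 ratios were 0.054 for Cyp27a1 and 0.023 for Cyp39a1, while Cyp51 and Cyp20a1 stayed below 0 at -0.23 and -0.55.

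Of the 77 genes 47 did not reach 1 FPKM in either library, and their highest value was 0.92 FPKM (Cyp4f37 in KO). Among these 47, 21 were higher in KO, 12 lower, 2 equal above 0 and 12 at 0 in both. Of the 21, 11 were at 0 in WT and at or below 0.15 FPKM in KO. Of the 12 lower ones, 3 were at 0 in KO and at or below 0.04 FPKM in WT. Such values rest on few reads, and the same split was not made for all genes below 1 FPKM. The genes of steroid hormone synthesis were at or near 0. Cyp11a1, the side-chain cleavage enzyme that starts it, was at 0.09 FPKM in KO and 0.38 FPKM in WT, Cyp19a1 (aromatase) at 0 in KO and 0.02 FPKM in WT, Cyp21a1 at 0.03 FPKM in KO and 0 in WT, and Cyp17a1 and Cyp11b2 at 0 in both. The 4 listed markers of steroid-producing cells summed to 10.2 FPKM in KO and 9.61 FPKM in WT. Insl3 was at 5.30 FPKM in KO and 3.57 FPKM in WT, and Akr1b7 at 3.92 FPKM in KO and 4.93 FPKM in WT. Star was at 0.98 FPKM in KO and 1.11 FPKM in WT, and Nr5a1 at 0.03 FPKM in KO and 0 in WT.

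The vitamin and bile acid genes among them were equally low. Cyp2r1, a vitamin D hydroxylase that the family numbering puts with Cyp2, was at 0.53 FPKM in KO and 0.79 FPKM in WT, and Cyp27b1, which makes the active hormone, at 0.16 FPKM in KO and 0.08 FPKM in WT. The retinoic acid hydroxylase genes Cyp26a1 and Cyp26b1 were at 0 in KO and at 0 and 0.04 FPKM in WT. Cyp7b1 and Cyp8b1, of bile acid synthesis, were at 0 in both. Cyp4f18 was at 0.15 FPKM in KO and 0.67 FPKM in WT, and Cyp2f2, known from lung, at 0.08 FPKM in KO and 0.31 FPKM in WT.

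Genes that work with the P450 enzymes were examined as further lists. The counts of each list stand beside 2.44% of all measured genes at least 2-fold higher and 2.19% at least 2-fold lower. Of 21 genes for redox partners and haem metabolism 1 was at least 2-fold higher in KO and 0 lower, with a median log2 ratio of 0.08 beside -0.18 for all genes. That gene was Cyb5a, the microsomal cytochrome b5, at 638.1 FPKM in KO and 306.2 FPKM in WT (1.06), followed by Cyb5b at 308.8 FPKM in KO and 182.9 FPKM in WT (0.75). Por, the P450 oxidoreductase and the shared electron donor, was at 259.1 FPKM in KO and 167.5 FPKM in WT (0.63). Por was singled out for its role, after its value was seen. Alas1, which starts haem synthesis, was at 60.1 FPKM in KO and 56.9 FPKM in WT (0.08). The lowest were Ppox and Fdx1l, at -0.54 and -0.51.

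Of 19 measured nuclear and xenobiotic receptors that regulate P450 genes 2 were at least 2-fold higher and 0 lower, with a median log2 ratio of 0.50. Over all measured genes 2.44% were higher and 2.19% lower, with a median of -0.18. Nr1i3, which encodes CAR, was at 8.19 FPKM in KO and 2.07 FPKM in WT (1.58), and Ppara, which encodes PPAR-alpha, at 5.65 FPKM in KO and 2.01 FPKM in WT (1.14). The lowest were Rxrb (-0.38) and Ahr, at 4.40 FPKM in KO and 5.33 FPKM in WT (-0.23). Chosen after their values were seen, Nr1i2, which encodes PXR, was at 34.9 FPKM in KO and 26.3 FPKM in WT, and Hnf4a at 251.9 FPKM in KO and 177.6 FPKM in WT.

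**Figure D4:**
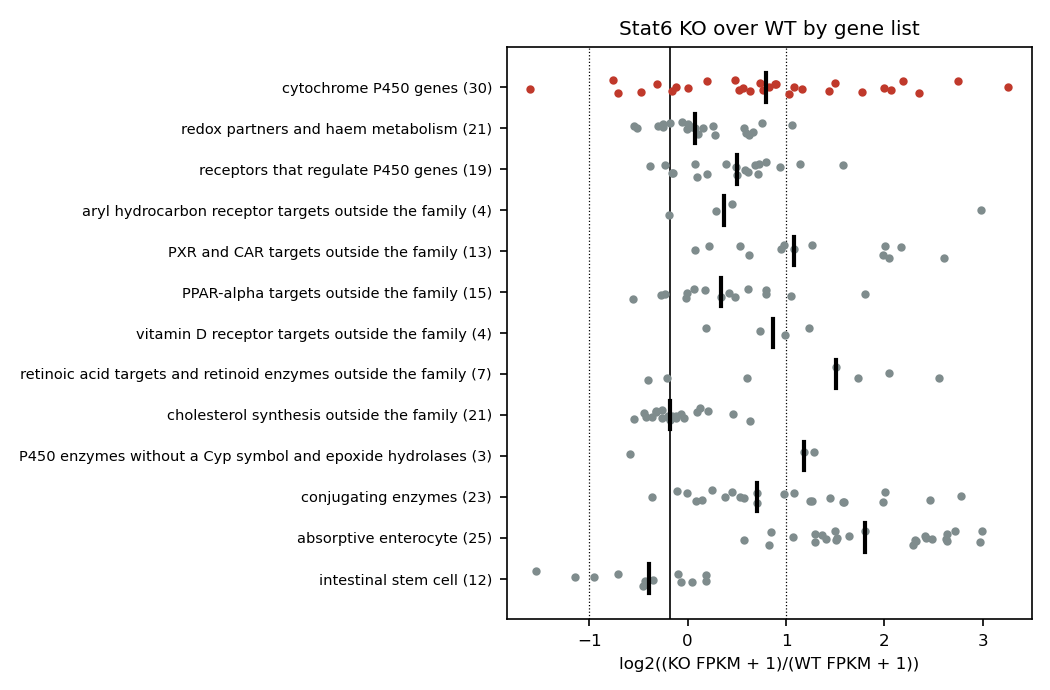
Log2 ratio of the Stat6 KO library over the WT library for each measured member (points) of the P450 family and of the further gene lists, with the list median as a thick bar, the median of all genes as a thin line, dotted lines at 2-fold and the number of measured members in brackets. The P450 median lies at 0.80, between the absorptive enterocyte markers (1.80) and the cholesterol synthesis genes (-0.18).

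Genes outside the family that the same receptors are known to induce were described list by list. For all measured genes the shares were 2.44% at least 2-fold higher and 2.19% at least 2-fold lower. Of 13 PXR and CAR targets 7 were at least 2-fold higher and 0 lower (median 1.08), led by the carboxylesterase Ces2a (373.7 FPKM in KO, 60.7 FPKM in WT) and the aldehyde dehydrogenase Aldh1a7 (22.2 FPKM in KO, 4.17 FPKM in WT). Of 15 PPAR-alpha targets 2 were higher and 0 lower (median 0.34), Fabp1 and Vnn1 at 1.80 and 1.05. Of 4 measured AHR targets 1 was higher and 0 lower (median 0.37), the actin-severing protein gene Scin at 2.98, while Nqo1, a quinone reductase, was at -0.19. Of 4 measured vitamin D receptor targets 1 was higher and 0 lower (median 0.87), the calcium-binding protein gene S100g at 1.23.

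Of 7 measured retinoid genes 4 were higher and 0 lower (median 1.51), with the carotene-cleaving enzyme gene Bco1 at 28.5 FPKM in KO and 4.04 FPKM in WT (2.55). Of 21 cholesterol synthesis genes 0 were past 2-fold (median -0.18, equal to that of all genes), with Tm7sf2 highest at 0.64, and Cyp51 of the same pathway lay at -0.47. Of 3 measured epoxide hydrolases and P450 genes without a Cyp symbol 2 were higher and 0 lower (median 1.18). The higher ones were the epoxide hydrolase genes Ephx2 and Ephx1, whose products open the epoxides that P450 enzymes make. They were at 57.0 and 94.3 FPKM in KO and at 22.8 and 40.9 FPKM in WT, log2 ratios of 1.28 and 1.18. Ephx3 and Ephx4 stayed below 1 FPKM, at 0.10 and 0.32 FPKM in KO and at 0.21 and 0.82 FPKM in WT. Ptgis, a P450 that makes prostacyclin and carries no Cyp symbol, was at 0.55 FPKM in KO and 1.32 FPKM in WT (-0.58). Of 23 measured conjugating enzymes 10 were higher and 0 lower (median 0.71), from the glucuronosyltransferase Ugt2b5 at 2.77 to the glutathione transferase Gstp1 at -0.36. Beside the counts of these lists, 2.44% of all measured genes were higher and 2.19% lower. The lists overlap: 8 of the 13 PXR and CAR targets also stand in another list, as do Fabp1 and Rbp2 of the enterocyte markers.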

How the data were processed

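Total RNA of 2 cultures, 1 Stat6 KO and 1 WT, was sequenced as single-end reads of 50 bases on a BGISEQ-500, with an average of 59000000 reads for each sample according to the labels' protocols. The deposited values are FPKM per gene, per the file headers. HISAT, Bowtie2, RSEM and mm9 are named in the submitters' processing notes, without versions or roles, and the sources used here give neither the annotation nor any filter. RSEM divides shared reads among similar genes by estimation, which matters in a family of close copies.

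From these values log2 ratios with a pseudocount of 1 FPKM, counts past 2-fold and sums were computed in Python 3.11.15 with pandas 2.3.3. Named P450 genes were all those that reached 1 FPKM in either library, and of each list the 2 highest and the 2 lowest could be named. Some genes that this selects are not reported here. With 1 library per genotype no test was made. Depth was searched between 10000000 and 30000000 reads for the number that best turned FPKM of short RNA genes into whole reads (multiples of it would as well): 89.9% of 119 values in KO and 88.9% of 135 in WT lay within 0.1 read, an agreement that the depth was chosen to maximise. Estimated reads used the longest GENCODE M21 transcript, and 95% intervals (exact binomial) cover counting error only. RefSeq and GENCODE are of a later build than mm9 and served for gene order, shared windows and promoter sequence. The members and lists were chosen with earlier results of these data known. Other pseudocounts (0.1 and 5), scalings (a trimmed mean of log ratios with trims of 30% and 5%, or the median set to 0), minimum levels, thresholds and sets of members were tried. Calculations were tested on simulated data.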

Additional observations from a re-analysis of the deposited data

How the results depend on the processing

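No paired analysis was possible because there was 1 library per genotype, and for the same reason no library could be left out. The number of P450 genes at least 2-fold higher in KO (12) lay between 10 and 15 under the 8 planned settings that keep the 2-fold threshold. Under the same settings the share of all genes at least 2-fold higher lay between 1.19% and 3.69%. A 1.5-fold threshold counted 18 genes and a 4-fold threshold 6, beside 5.71% and 0.42% of all measured genes. The 1 lower gene, Cyp1b1, was no longer counted (0 genes) with a pseudocount of 5 or a 4-fold threshold. It also dropped out (0 genes) with a minimum of 5 FPKM or of 1 FPKM in both libraries. Of all genes 0.52%, 0.22%, 1.69% and 1.48% were lower under these settings, in that order. A 1.5-fold threshold counted 3 of the 30 genes as lower, beside 11.5% of all measured genes. With no minimum level the median log2 ratio of the family was 0.053, since genes near 0 then enter. Leaving out the most abundant member moved the KO to WT ratio of sums to 0.22 for Cyp1, 2.49 for Cyp2c, 4.31 for Cyp2d and 5.29 for Cyp3a. For Cyp4f the ratio fell from 2.11 to 1.62, below 2-fold. The median of the retinoid list was 0.66 with a pseudocount of 5 and 0.22 with no minimum level, and that of the list with the epoxide hydrolases turned to -0.20 with no minimum level. Leaving out P450 genes that share at least 20% of their windows, chosen after seeing the data, gave 10 higher and 1 lower of 26. The shares over all measured genes were 2.44% higher and 2.19% lower. Among single genes, a pseudocount of 0.1 or 5 moved 3 and 4 of 30 log2 ratios by more than 1.5-fold, and the scalings changed the sign of Cyp27a1 and Cyp39a1 alone. The median of the cholesterol synthesis list (-0.18) turned to 0.053 with the trimmed-mean scaling and to 0.0002 with the median of all genes set to 0. Genes of about 1 FPKM rest on fewer reads than the abundant ones, 40.0 in KO and 39.8 in WT for a 2-kilobase transcript at the estimated depth.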
